A study of Mus musculus with 6 samples.

Results

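The Toll-like receptors measured here were the 10 mouse genes *Tlr1*, *Tlr2*, *Tlr3*, *Tlr4*, *Tlr5*, *Tlr6*, *Tlr7*, *Tlr8*, *Tlr9* and *Tlr13*, on every array probe whose transcript accession belongs to one of them in a RefSeq gene table. This gave 18 probes, out of 56601 tested and 33767 that could be named, and 10 genes out of 23462. The data were gene expression arrays of microglia, the resident macrophages of the brain, sorted as CD45 low, CD11b+ and Cx3cr1+ cells from 3-month-old C57BL/6 mice, and they address which genes change when microglia lack Bhlhe41. Bhlhe41 is a transcription repressor that binds E-box DNA, and its targeted allele carries dTomato and Cre ahead of the start codon, so that its own promoter drives both and no Bhlhe41 protein is made from that copy. The controls, *Bhlhe41* dTomato-Cre/+ (B41HET, 3 samples), had this allele on one chromosome and an intact gene on the other. The knockouts, *Bhlhe41* dTomato-Cre/dTomato-Cre (B41KO, 3 samples), had it on both, so Cre and dTomato were present in both genotypes and no sample was from wildtype mice. Per the Methods each sample pooled several mice, whereas the labels speak of 3 mice per genotype, so the spread between samples may leave out part of the spread between animals.

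Toll-like receptors are membrane proteins of innate immune cells that bind conserved parts of microbes and, in some cases, molecules released by damaged cells. *Tlr1*, *Tlr2*, *Tlr4*, *Tlr5* and *Tlr6* encode receptors of the cell surface, which bind lipopeptides, lipopolysaccharide or flagellin, and *Tlr3*, *Tlr7*, *Tlr8*, *Tlr9* and *Tlr13* encode receptors of endosomes, which bind nucleic acids. All of these except Tlr3 signal through the adaptor Myd88 to kinases of the Irak family and to NF-kB, and microglia are the main cells of the brain parenchyma that carry them.

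The promoters of the 2 receptor genes called on the probe that stands for each gene are shown because Bhlhe41 binds the E-box CACGTG. RefSeq sequences on GRCm38.p6, from 250 bases before to 50 bases after each annotated start, were available for 8 of the 10 receptors in 10 windows, with none for *Tlr4* or *Tlr7*. Both *Tlr1* windows and the *Tlr5* window are printed 5′ to 3′ along the gene's strand, with CACGTG in capitals where it occurs.
Tlr1, first start, chr5:64933509-64933808, minus strand: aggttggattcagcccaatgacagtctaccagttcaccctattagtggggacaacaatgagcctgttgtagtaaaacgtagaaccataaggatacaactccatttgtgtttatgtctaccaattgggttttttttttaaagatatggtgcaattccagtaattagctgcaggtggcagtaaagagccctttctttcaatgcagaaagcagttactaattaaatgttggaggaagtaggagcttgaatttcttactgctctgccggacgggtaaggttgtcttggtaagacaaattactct
Tlr1, second start, chr5:64932650-64932949, minus strand: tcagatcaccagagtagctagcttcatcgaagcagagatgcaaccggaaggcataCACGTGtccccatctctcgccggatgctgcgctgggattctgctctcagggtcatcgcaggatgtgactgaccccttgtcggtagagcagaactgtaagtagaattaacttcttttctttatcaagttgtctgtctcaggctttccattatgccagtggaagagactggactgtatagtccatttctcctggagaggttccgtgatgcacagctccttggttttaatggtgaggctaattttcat
Tlr5, chr1:182954538-182954837, plus strand: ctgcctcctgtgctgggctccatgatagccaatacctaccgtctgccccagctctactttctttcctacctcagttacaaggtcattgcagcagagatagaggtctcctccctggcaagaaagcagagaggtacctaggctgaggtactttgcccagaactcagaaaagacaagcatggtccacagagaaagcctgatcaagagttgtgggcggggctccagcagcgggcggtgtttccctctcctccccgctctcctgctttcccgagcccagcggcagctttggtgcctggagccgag
CACGTG, which reads the same on both strands, was found in 1 of the 10 receptor windows, the second of *Tlr1*, 195 bases before the start. It was present in 7.15% of all 32851 windows of this length, in 8.02% of the 22644 windows of genes tested, in 9.39% of the 330 windows of genes called higher in B41KO and in 8.14% of the 970 windows of genes called lower. These matches describe the letters alone, and no binding was measured in the arrays. Sites more than 250 bases before a start were not searched. The paper reports Bhlhe41 bound at such distances in the *Cd22* promoter and in its own.

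The arrays gave between 70.1% and 75.5% of probes well above background per sample, with no saturated spot, and all lay on 1 slide. All 10 microglia markers examined, among them *Tmem119* and *P2ry12*, were well above background on all 6 arrays, and the median log2 signal of the list was 14.07 to 14.32 in B41HET and 14.31 to 14.38 in B41KO samples. The median log2 difference of the list was -0.05, with 6 markers negative and 4 positive. Without overlap between the genotypes, 4 lay below in B41KO and 1 above. Transcripts of the targeted gene did not check the labels. The brightest *Bhlhe41* probe read 7.95, 7.87 and 7.65 on the log2 scale in the B41HET samples and 8.56, 7.84 and 8.21 in the B41KO samples, with a log2 difference of 0.38 (adjusted p = 0.330, limma). The other *Bhlhe41* probe read 7.86, 7.58 and 7.40 against 7.96, 7.90 and 7.96, all B41KO samples above all B41HET samples, with a log2 difference of 0.33 (adjusted p = 0.203), so each probe had a higher mean in B41KO and was not called. Where the probes lie relative to the inserted cassette was not determined here.

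Many markers of other cells were lower in the B41KO samples, and their part in the results on receptors was not tested. Of 12 neutrophil markers 11 were called lower, and the median log2 signal of the list was 9.85 to 9.92 in B41HET and 7.51 to 7.67 in B41KO samples, with all 12 above background on all 6 arrays. Lower calls were also made for 3 of 7 monocyte markers (list median 5.20 to 5.34 against 4.32 to 4.43), for 5 of 9 border macrophage markers (5.65 to 5.90 against 4.87 to 5.21, with *Mrc1* and *Lyve1* not well above background in B41KO), and for 2 of 10 dendritic cell markers, *Clec10a* and *Cd209a* (6.03 to 6.07 against 4.78 to 5.16). The other 8 dendritic cell markers were not called, 4 of the 10 had positive differences, and the median log2 difference of that list was -0.21, against -2.37 for neutrophil, -0.35 for monocyte and -1.10 for border macrophage markers. *F13a1* is in both the monocyte and the border macrophage list and counts once in each, and in B41KO it was well above background on 1 of 3 arrays and the monocyte marker *Plac8* on 2 of 3. For B cells 1 of 8 markers was called lower (5.18 to 5.31 against 5.002 to 5.16), for endothelial cells 2 of 7 (3.28 to 3.91 against 3.38 to 3.74) and for microglia 1 of 10, *Fcrls*. In RNA from many cells, as here, fewer cells of a type and less RNA per cell cannot be told apart.

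Among the receptors, *Tlr1* rose in B41KO microglia, *Tlr5* fell, and the other 8 genes were not called. Calls required both a log2 fold change of at least 0.5 in either direction and an adjusted p, taken over all probes, no higher than 0.05, and each gene was represented by its brightest probe over the 6 arrays. By that rule 1 of the 10 genes was higher and 1 was lower, where 1.44% and 4.01% of all named genes were. Of genes well above background on all 6 arrays, as the 10 receptors were, 1.6% were called higher and 4.88% lower. Counted by probe, 4 of 18 were called (22.2%), 3 higher and 1 lower, against 5.07% of all probes (1.72% higher and 3.34% lower), and the 4 belonged to *Tlr1*, *Tlr5* and *Tlr7*. All probes include dim ones, whereas 16 of the 18 were well above background on all 6 arrays. The median log2 difference of the 10 genes was 0.06, and that of all named genes was 0.01.

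**Figure D1:**
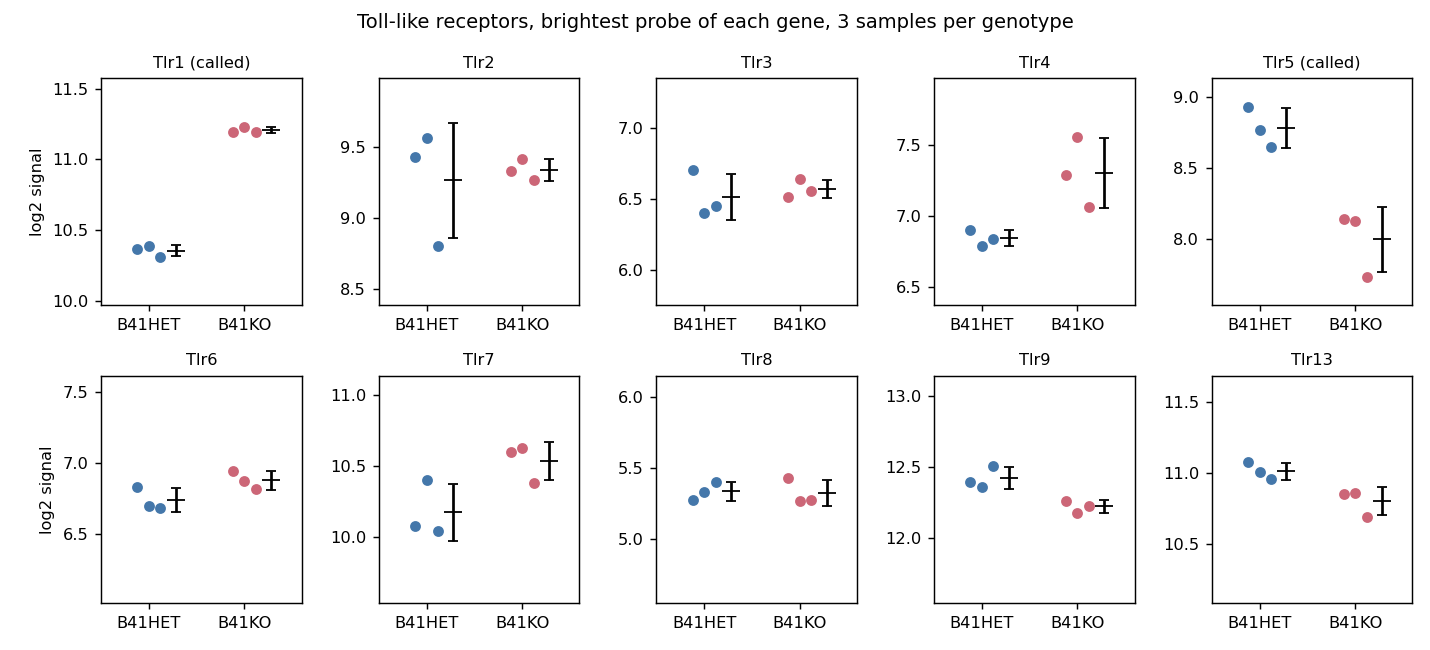
Log2 signal of the brightest probe of each of the 10 receptors in the 3 B41HET (blue) and 3 B41KO (red) samples, with the mean and SD of each genotype as a black bar. Each panel spans the same number of log2 units around its own values, so slopes can be compared but heights cannot, and the genotypes separate most widely in *Tlr1* and *Tlr5*.

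*Tlr1*, whose product pairs with Tlr2 to bind triacylated lipopeptides, had the lowest adjusted p of the 18 probes, on its brightest probe. That probe, A_51_P495581, read 10.37, 10.39 and 10.31 in the B41HET samples and 11.19, 11.23 and 11.19 in the B41KO samples on the log2 scale. All B41KO samples lay above all B41HET samples, as one genotype lay apart from the other on 29.7% of all probes, and the gap between the genotypes, 0.81, was many times the SD within either, 0.04 and 0.02. The log2 difference was 0.85 ± 0.07 (SE, n = 3 per genotype, adjusted p = 0.004, limma), a 1.80-fold higher signal with a 95% interval of 0.69 to 1.01 on the log2 scale.

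The other *Tlr1* probe, A_66_P137861, lies on a different transcript accession and moved alike. It read 8.18, 8.18 and 8.24 in B41HET and 8.90, 9.04 and 9.17 in B41KO samples, again without overlap, and the log2 difference was 0.83 (95% interval 0.61 to 1.06, adjusted p = 0.010, limma). The call of the brightest probe held with any of the 6 samples left out (adjusted p between 0.022 and 0.033), whereas that of the other probe was lost without B41HET sample 1 (adjusted p = 0.050, above the threshold before rounding) or B41HET sample 2 (0.057). B41KO samples 2 and 3 lay in another row of the slide than the rest, and with slide row as a block, which sets B41KO sample 1 alone against the 3 B41HET samples, the difference of the brightest probe was 0.84 (adjusted p = 0.056) and that of the other 0.69 (0.086).

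Neither *Tlr2* nor *Tlr6*, whose products act beside Tlr1 in lipopeptide receptors, was called. *Tlr2*, the shared subunit of both lipopeptide receptors, read 9.43, 9.56 and 8.80 in B41HET and 9.33, 9.42 and 9.26 in B41KO samples. The genotypes overlapped, B41HET sample 3 being lower than the other 5, and the log2 difference was 0.07 with a 95% interval of -0.44 to 0.59 (adjusted p = 0.879, limma), which leaves room for a shift of up to that size in either direction. Without B41HET sample 3 the difference was -0.16.

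*Tlr6*, the partner of Tlr2 for diacylated lipopeptides, is annotated close to *Tlr1* on the same strand of chromosome 5. It read 6.83, 6.69 and 6.68 in B41HET and 6.94, 6.87 and 6.81 in B41KO samples. The highest B41HET sample lay just above the lowest B41KO sample, and the log2 difference of 0.14 (95% interval -0.06 to 0.34, adjusted p = 0.367, limma) had an interval that did not reach that of *Tlr1*, although the difference between the genes was not itself tested.

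*Tlr5*, the receptor for bacterial flagellin, was the member that fell. Its only probe, A_66_P111367, read 8.93, 8.77 and 8.65 in B41HET and 8.14, 8.12 and 7.73 in B41KO samples. No sample of one genotype reached the other, and the log2 difference was -0.78 ± 0.14 (SE, n = 3 per genotype, 95% interval -1.14 to -0.43, adjusted p = 0.038, limma), a 1.72-fold lower signal. This call was close to the threshold and was lost when any of the 6 samples was left out, with differences of -0.85 to -0.65 and adjusted p-values of 0.064 to 0.120, and with slide row as a block (-0.64, adjusted p = 0.245). The decrease stood beside the neutrophil, monocyte and border macrophage markers called lower above, with *Clec10a* and *Cd209a*, and their part in it was not tested.

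*Tlr4*, the receptor for lipopolysaccharide, was measured by 2 probes, neither of them called. The brighter, A_51_P300806, read 6.90, 6.78 and 6.84 in B41HET and 7.29, 7.55 and 7.06 in B41KO samples. All B41KO samples were higher, but they were spread widely, and the log2 difference of 0.46 (95% interval 0.12 to 0.80) was not called (adjusted p = 0.116, limma) and was 0.28 with the normexp background correction. The other, A_55_P2603039, read 6.08, 5.95 and 6.004 against 5.91, 6.07 and 5.86, with overlap and a log2 difference of -0.07 (95% interval -0.28 to 0.15, adjusted p = 0.708, limma) that was 0.01 when arrays were scaled to their 75th percentile.

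**Figure D2:**
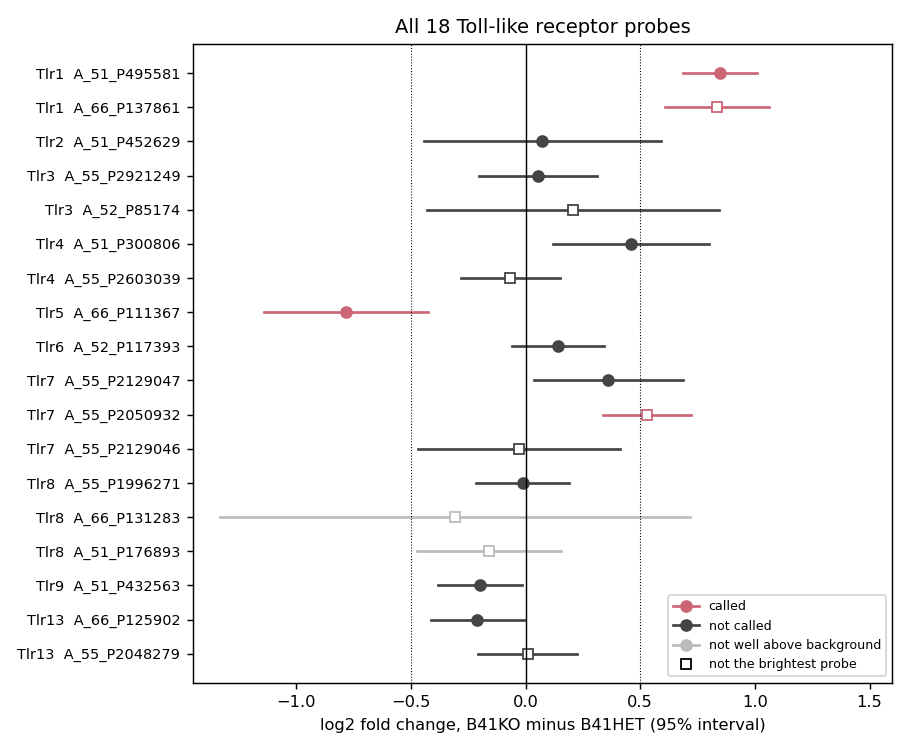
Log2 fold change (B41KO minus B41HET, horizontal axis) of all 18 receptor probes with 95% intervals, filled circles for the brightest probe of a gene, open squares for its other probes, and dotted lines at the fold threshold of 0.5. The 4 called probes, in red, are both of *Tlr1* and 1 of *Tlr7* to the right and that of *Tlr5* to the left, and 2 *Tlr8* probes in grey were not well above background.

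Of the endosomal receptors, *Tlr7*, which binds single-stranded RNA, was called on 1 of its 3 probes and not on the brightest. A_55_P2129047, the brightest by a margin of under 0.01 log2 units, read 10.08, 10.40 and 10.04 in B41HET and 10.60, 10.63 and 10.38 in B41KO samples. B41HET sample 2 lay just above B41KO sample 3, and the log2 difference of 0.36 (95% interval 0.03 to 0.69) was not called (adjusted p = 0.179, limma). A_55_P2050932, on the same transcript, read 10.11, 10.08 and 10.06 against 10.63, 10.70 and 10.51.

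On that second probe the genotypes did not overlap, and the log2 difference of 0.53 ± 0.08 (SE, n = 3 per genotype, 95% interval 0.34 to 0.72) was called (adjusted p = 0.022, limma). Leaving out B41KO sample 3 kept the call (0.58, adjusted p = 0.039), and leaving out any of the other 5 lost it (0.49 to 0.54, adjusted p 0.068 to 0.089). The remaining *Tlr7* probe, A_55_P2129046, lies on another transcript accession and read 6.93, 7.06 and 6.88 in B41HET and 7.31, 6.68 and 6.80 in B41KO samples. B41KO sample 1 was the highest of the 6 and B41KO sample 2 the lowest, and the log2 difference was -0.03 (95% interval -0.47 to 0.41).

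**Figure D3:**
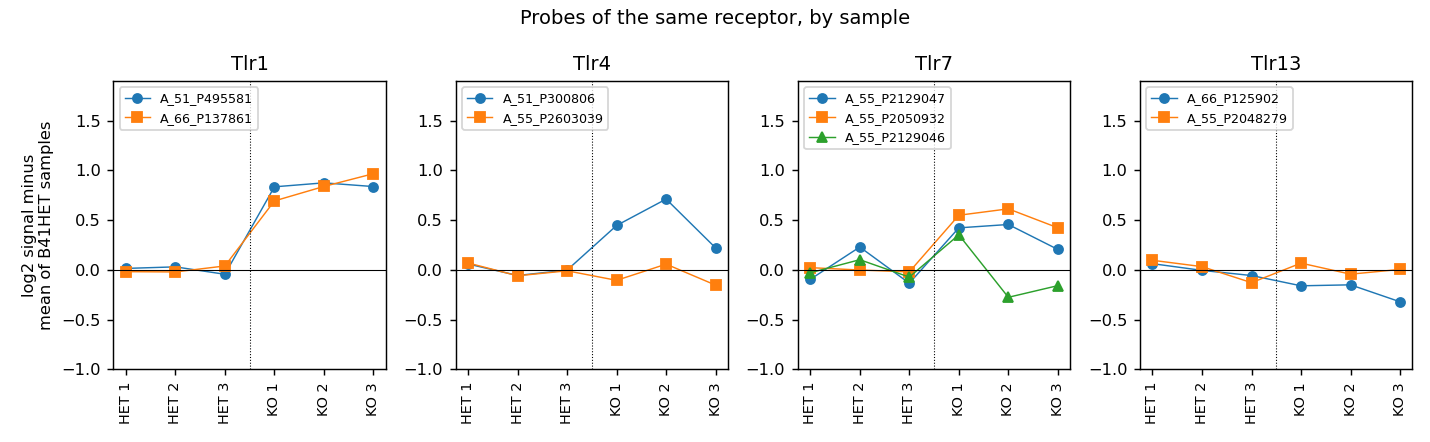
Log2 signal of each probe minus its mean over the 3 B41HET samples (vertical axis), by sample, for *Tlr1*, *Tlr4*, *Tlr7* and *Tlr13*, with lines joining the samples of a probe only to guide the eye. Both *Tlr1* probes are shifted in all 3 B41KO samples, while the probes of *Tlr4* and *Tlr7* part from each other in B41KO.

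*Tlr9*, the receptor for unmethylated CpG DNA, read 12.39, 12.36 and 12.51 in B41HET and 12.26, 12.17 and 12.23 in B41KO samples. All B41KO samples were below all B41HET samples by a gap of 0.10, and the log2 difference of -0.20 (95% interval -0.38 to -0.01) was not called (adjusted p = 0.189, limma). A decrease of the size of the fold threshold lay outside the interval.

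*Tlr13*, which recognises bacterial ribosomal RNA, gave a similar value on its brightest probe, A_66_P125902, with 11.07, 11.01 and 10.95 in B41HET and 10.85, 10.86 and 10.69 in B41KO samples. These did not overlap either, and the log2 difference was -0.21 (95% interval -0.41 to -0.01, adjusted p = 0.203, limma). The other *Tlr13* probe, A_55_P2048279, overlapped between the genotypes (9.17, 9.11 and 8.95 against 9.14, 9.03 and 9.08) and had a log2 difference of 0.01 (95% interval -0.21 to 0.23).

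*Tlr3*, the receptor for double-stranded RNA, overlapped between the genotypes on both probes. The brightest read 6.70, 6.40 and 6.45 in B41HET and 6.51, 6.64 and 6.56 in B41KO samples, a log2 difference of 0.06 (95% interval -0.20 to 0.31, adjusted p = 0.805, limma). The dimmer probe spread more within each genotype, from 4.72 to 5.45 in B41HET and from 4.98 to 5.70 in B41KO, and its difference of 0.21 had a wide interval (-0.43 to 0.84).

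*Tlr8*, an RNA receptor encoded beside *Tlr7* on the X chromosome, was dim. Its brightest probe read 5.27, 5.33 and 5.40 in B41HET and 5.43, 5.27 and 5.27 in B41KO samples, with overlap and a log2 difference of -0.01 (95% interval -0.21 to 0.19, adjusted p = 0.954, limma). The other 2 *Tlr8* probes were not well above background on any array, so the sign and size of their differences carry no information on a change.

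Across the family, the brightest probes of 5 of the 10 genes did not overlap between the genotypes, 2 above (*Tlr1* and *Tlr4*) and 3 below (*Tlr5*, *Tlr9* and *Tlr13*). Of all named genes 32.2% did not overlap, 14.2% above and 18% below. The surface receptors held both called genes, and in both location classes there were members with positive and members with negative differences. When the probes of a gene were averaged, *Tlr1* (0.84, adjusted p = 0.006, limma) and *Tlr5* (-0.78, adjusted p = 0.042) were called, and *Tlr7* was not (0.29, adjusted p = 0.185).

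The remaining mouse receptors, *Tlr11* and *Tlr12*, which sense profilin of protozoa, were examined as a list of their own. *Tlr12* read 8.09, 7.80 and 7.63 in B41HET and 8.58, 8.55 and 8.51 in B41KO samples. It was higher in all B41KO samples, by 0.71 ± 0.13 (SE, n = 3 per genotype, log2, adjusted p = 0.036, limma), and remained called when B41HET sample 1 was left out but not when any of the other 5 was (0.60 to 0.72). *Tlr11* had a log2 difference of -0.13 (adjusted p = 0.792, limma).

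Genes that act with the receptors were called lower more often than higher. Of 59 pathway genes, *Tlr11* and *Tlr12* included, 1 was called higher (*Tlr12*), 7 were called lower and 51 were not called, against 1.44% higher and 4.01% lower of all named genes. Of genes well above background on all 6 arrays, as 53 of the 59 were, 1.6% were called higher and 4.88% lower. The median log2 difference of the 59 was -0.14, with 44 negative and 15 positive values, where 51.2% of all named genes were positive, and it stayed negative, between -0.21 and -0.09, in the alternative fits that held all 59. With any 1 sample left out, 4 or 5 pathway genes were called in place of 8, and with slide row as a block 2 were, *Irak1* and *Peli1*.

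**Figure D4:**
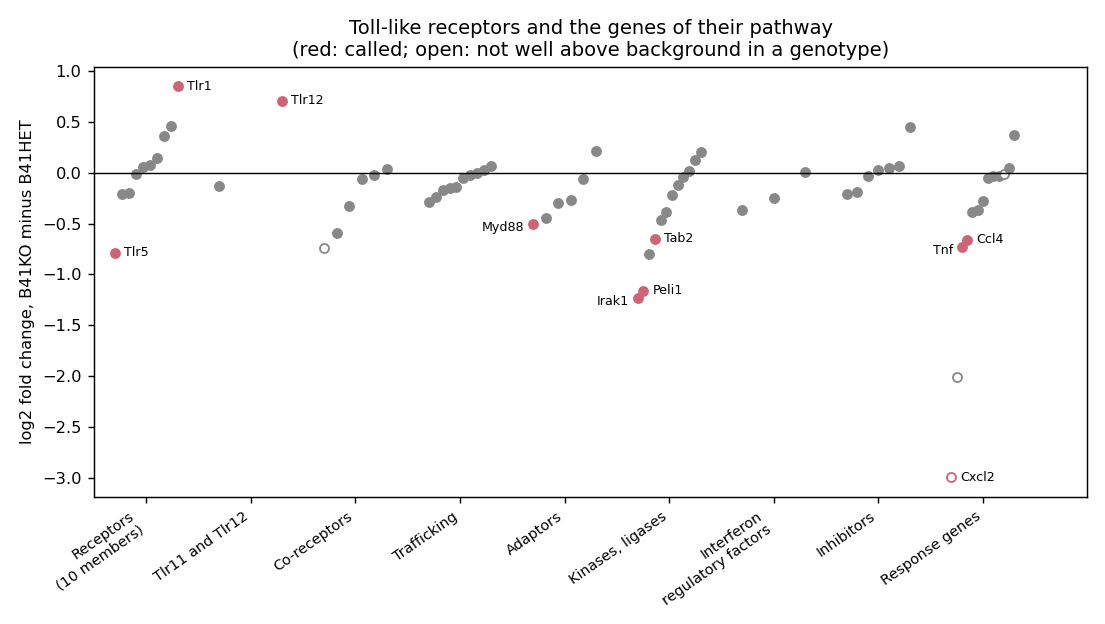
Log2 fold change (B41KO minus B41HET, vertical axis) of the brightest probe of each receptor and of each of the 59 pathway genes, grouped by role and sorted within a group, with called genes in red and genes well above background on no array of a genotype as open circles. Called genes of the adaptor, kinase and response groups lie below 0, and *Tlr1* and *Tlr12* lie above. The position of *Cxcl2* is a fitted value that rests on B41KO signals not well above background.

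Before signalling, ligands are passed on by co-receptors and the endosomal receptors are carried and cleaved by helper proteins, and no gene of either group was called. Of 6 co-receptors the median log2 difference was -0.20, and *Ly96*, which holds lipopolysaccharide on Tlr4, was at 15.35 in B41HET and 15.39 in B41KO (0.04, adjusted p = 0.809, limma). A dimmer probe of *Cd180*, a relative of the receptors found on B cells and macrophages, was called lower (-0.73, adjusted p = 0.047), while its brightest was not (-0.07, adjusted p = 0.707). Of 10 trafficking and processing genes the median was -0.10, and *Unc93b1*, which escorts nucleic acid receptors to endosomes, was at 14.06 and 13.92 (-0.14, adjusted p = 0.559).

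Among 6 adaptors, *Myd88*, used by nearly all of the family, fell. It read 8.06, 8.03 and 7.84 in B41HET and 7.50, 7.54 and 7.38 in B41KO samples. The genotypes did not overlap, and the log2 difference of -0.50 ± 0.09 (SE, n = 3 per genotype, adjusted p = 0.038, limma) lay at the fold threshold. It was not called when any 1 sample was left out (-0.57 to -0.46, adjusted p 0.059 to 0.130), nor with arrays scaled to their 75th percentile (-0.49, adjusted p = 0.054) or with the normexp background correction (-0.39). *Pik3ap1*, an adaptor that links the receptors to PI3-kinase, passed the adjusted p alone (-0.45, adjusted p = 0.043) and was not called.

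Of 12 kinases and ubiquitin ligases 3 fell, with a median log2 difference of -0.30 in the list. *Irak1*, a kinase recruited by Myd88, read 12.22, 12.20 and 12.14 in B41HET and 10.997, 10.97 and 10.89 in B41KO samples. *Peli1*, a ubiquitin ligase of the same complex, read 11.74, 11.73 and 11.67 against 10.58, 10.54 and 10.53. Neither gene overlapped between the genotypes, and the log2 differences were -1.23 ± 0.07 and -1.16 ± 0.06 (SE, n = 3 per genotype, adjusted p = 0.002 for both, limma), called with any sample left out.

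*Tab2*, which brings the kinase Tak1 to ubiquitin chains, was lower by a log2 difference of -0.65 (adjusted p = 0.031, limma), a call kept in 1 of 6 fits with a sample left out, that without B41KO sample 1. These 3 calls rest on the brightest probe of each gene. Other probes of *Irak1* differed by -0.12 and 0.01 (adjusted p = 0.377 and 0.974), that of *Peli1* by 0.003 (0.992) and those of *Tab2* by -0.24 and -0.14 (0.448 and 0.397), so no probe but the brightest was called for any of them.

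No interferon regulatory factor of 3 and no inhibitor of 7 was called. The median log2 differences were -0.25 and 0.02, *Irf5*, which acts below Myd88, was at 13.49 in B41HET and 13.50 in B41KO (0.01, adjusted p = 0.948, limma), and *Tollip*, which restrains Irak1, was at 9.77 and 9.59 (-0.19, adjusted p = 0.265).

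Of 13 response genes, which receptor signalling is known to induce, 3 were called lower and none higher, with a median log2 difference of -0.28. *Cxcl2* and *Ptgs2* were not well above background in B41KO. The median was -0.23 with their B41KO values raised to the lowest signal well above background on each array. *Tnf* read 13.05, 13.13 and 13.18 in B41HET and 12.44, 12.39 and 12.34 in B41KO samples, and *Ccl4*, a chemokine, 10.66, 10.63 and 10.51 against 9.92, 10.01 and 9.89. Neither overlapped, the log2 differences were -0.73 ± 0.07 (SE, n = 3 per genotype, adjusted p = 0.008, limma) and -0.66 ± 0.08 (adjusted p = 0.013), and the second probe of each gene was also called (-0.64 and -0.60). The call of *Tnf* was kept without any of the 6 samples, and that of *Ccl4* was lost without B41HET sample 1 or 2 or B41KO sample 1 (-0.65 to -0.63).

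*Cxcl2*, a chemokine for neutrophils, was not well above background in any B41KO sample. Its signal was 1.68-fold lower there when each B41KO value was raised to the lowest signal well above background on that array. That signal is not a strict limit of detection, so the fold depends on this choice. The call rests on the fitted log2 difference of -2.99 (adjusted p = 0.011, limma), whose B41KO values lie at background. With the normexp background correction the log2 difference of *Cxcl2* was -0.32 and the gene was not called. It was also not called without B41KO sample 2 (adjusted p = 0.051). *Nfkbia*, the feedback inhibitor of NF-kB, read between 14.25 and 14.34 in all 6 samples. Dimmer probes of *Il1b* (-1.56, adjusted p = 0.012) and *Nfkbiz* (-1.42, adjusted p = 0.004) were called lower while the brightest of each was not (-0.37 and -0.28, adjusted p = 0.105 and 0.314). The neutrophil, monocyte and border macrophage markers called lower in B41KO stand beside all of these decreases as well, and their part in them was not tested.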

How the data were processed

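RNA of sorted microglia, 3 samples per genotype, was hybridised to 1-colour SurePrint G3 Mouse arrays. For each array, the scanner file that the authors deposited came from Feature Extraction 11.5.1.1 and holds intensity values with background subtracted, without scaling between arrays. A deposited series table was read as log2 intensities, since all columns share the same quantiles, and served as an alternative, although its scale is not stated in the sources used here.

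From the scanner output, control spots and spots flagged as outliers (95 to 136 per array) were left out, and log2 intensities were quantile normalized, spots being averaged for each of 56605 probes. The 56601 probes with at least 2 values per genotype were fitted with limma 3.58.1 (R 4.3.3, data.table version 1.17.8), genotype being the only term, with Benjamini-Hochberg adjustment across every probe tested. Quantile normalization, limma and both thresholds follow the Methods. The number of arrays limits the precision. Labels call the samples biological replicates.

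Probes were named by transcript accession through RefSeq genes on GRCm38.p6, and 40.3% stayed unnamed. The array design used another build, so no probe coordinates are given. The script was tested on simulated data. The members and lists were chosen with earlier results of these data known. Besides *Bhlhe41* and single markers from the cell type lists, named genes were all members on every probe. Of each pathway list, up to 4 called genes or the brightest uncalled one were named. The 5 genes most like the called receptor of largest change were named as well. *Tlr11*, *Ptgs2*, *Pik3ap1*, *Cd180*, *Il1b*, *Nfkbiz* and *Nfkbia* were added after their values were seen. Plots were made in Python 3.11.15 (matplotlib 3.10.9).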

Additional observations from a re-analysis of the deposited data

How the results depend on the processing

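The number of receptor genes called was 2 here and under the 75th percentile shift, the authors' values, a filter on dim probes, the normexp correction (which called 1500 of all probes in place of 2867), outlier spots kept, a trended robust variance, no fold threshold, a fold of 1.5 and averaging a gene over its probes, and 3 with the probe of lowest p. Of the 4 receptor probes, 3 were called with a fold of 1.5 and under the 75th percentile shift, where *Tlr7* A_55_P2050932 was at 0.498. That shift moved the median of all probes from 0.02 to 0.13 and the share of higher calls from 34% to 45.8%. Leaving out 1 sample gave 1 to 1 receptor genes (*Tlr1* each time), 1 to 3 receptor probes, 4 to 5 pathway genes and 792 to 1525 probes over the whole array.

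Deviations of same-numbered samples from their genotype means correlated little over all probes (0.028, 0.014 and 0.048). Whether such samples shared a preparation was not tested. With the replicate block, 0 receptor genes, 0 receptor probes and 0 pathway genes were called, and 42 probes over the whole array. B41KO samples 2 and 3 lay in the other row of the slide. With slide row as a block, in which B41KO sample 1 alone is set against the B41HET samples, 0 receptor genes, 0 receptor probes and 2 pathway genes were called (444 probes over the whole array), with *Tlr1* at 0.84 (adjusted p = 0.056) and *Tlr5* at -0.64 (0.245). Both fits leave fewer residual degrees of freedom, and the cause was not tested otherwise.

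Signs turned only for probes that were never called. For *Tlr8* A_51_P176893, well above background on none of the arrays, the sign carries no information. Under the 75th percentile shift it was 0.13, *Tlr8* A_55_P1996271 0.0832, *Tlr13* A_55_P2048279 -0.00382, *Tlr7* A_55_P2129046 0.0149 and *Tlr4* A_55_P2603039 0.00853. With normexp these *Tlr8* probes were 0.0180 and 0.0223. With slide row as a block, *Tlr3* A_52_P85174 was -0.14, *Tlr3* A_55_P2921249 -0.00151, *Tlr8* A_55_P1996271 0.0947 and *Tlr7* A_55_P2129046 0.35. Leaving out 1 sample, *Tlr7* A_55_P2129046 ranged from -0.22 to 0.10, *Tlr3* A_55_P2921249 from -0.00336 to 0.15, *Tlr2* from -0.16 to 0.22, *Tlr8* A_55_P1996271 from -0.0648 to 0.0217 and *Tlr13* A_55_P2048279 from -0.0548 to 0.0578.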

Other observations

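The named genes whose 6 mean-centred log2 signals lay closest to those of *Tlr1*, among 17221 genes well above background on all arrays, were *4930404N11Rik* (root mean square difference 0.05), *Calhm6*, *Man2b2*, *Madd* and *Cox6a2* (0.06 to 0.07). Calhm6 is a channel protein of immune cells, Man2b2 a lysosomal mannosidase, Madd an exchange factor for Rab proteins and Cox6a2 a subunit of cytochrome oxidase. All 5 were called higher in B41KO, by log2 differences of 0.76 to 0.88 (limma). They were picked for their likeness over the same samples, so their direction follows from that of *Tlr1* and says nothing of shared function or control.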
